A study of Mus musculus with 16 samples.

Results

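The genes of cholesterol and fatty acid synthesis were followed on 16 arrays of RNA from MC/9 cells and from their exosomes, the small vesicles that cells release. The members were fixed as a list of 36 symbols, and a probe set (the group of oligonucleotides that measures 1 transcript) counted where its single annotated gene was on the list. This gave 34 genes with 80 probe sets, of 18193 genes on the array. Acat2 had no probe set of its own in the annotation used here, and Sc4mol is the older symbol of Msmo1. A gene was represented by its probe set of highest mean log2 signal over the 16 arrays, and 9 of the 34 had 1 probe set only.

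MC/9 is a mouse mast cell line, grown with rat T-Stim, a culture supplement. All 4 groups, of 4 arrays each, came from it: cells and exosomes of normal conditions (norm cell and norm exo), and cells and exosomes of cultures under oxidative stress, 125 µM H2O2 for 24 h (oxi cell and oxi exo). The exosomes were filtered and pelleted from the culture supernatant. GEO's design text speaks of the cells as recipients before and after exosomes were added, whereas the study used them as the donor cells with or without H2O2, and they are taken as the latter here. The study describes a pair of norm cell samples and a pair of norm exo samples as taken from different cultures and does not say so of the other replicates, so the p-values measure the spread between these samples, which may be partly technical. In RNA of a whole culture or pellet, fewer cells or vesicles and less RNA in each cannot be told apart.

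The signals were linear and scaled to the same trimmed mean of 100 on every array. As background, each array has the level that 95% of 162 probe sets for genes foreign to mast cells, such as olfactory receptors, do not pass. It lay between 10.8 and 17.7 on the 8 cell arrays and between 223.9 and 322 on the 8 exosome arrays. Of 11 mast cell markers, 10 were above background on all arrays of both cell groups, 6 on all norm exo arrays and 1 on all oxi exo arrays. For Gapdh, the 3' probe set over the 5' one, which rises as RNA is broken, gave 0.823 to 0.884 in cells and 1.43 to 2.33 in exosomes.

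Cells make cholesterol from acetyl-CoA through mevalonate, farnesyl diphosphate, squalene and lanosterol. The transcription factors SREBP-1 and SREBP-2 (genes Srebf1 and Srebf2) switch these enzymes and those of fatty acid synthesis on. SCAP escorts the factors out of the endoplasmic reticulum when sterols are low, and the INSIG proteins hold SCAP back when sterols are high. The LXR receptors sense oxidised sterols and switch on Abca1 and Abcg1, pumps that carry cholesterol out of the cell.

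SREBP binds the sterol regulatory element. It often works beside NF-Y, a factor that binds the letters CCAAT. It can also bind the E-box, with the letters CACGTG. The windows of RefSeq promoters (build GRCm38.p6, 250 bases before to 50 after a start site) were searched on both strands for the sterol element as TCACNCCAC, and for the other motifs by these letters. The windows used did not cover every chromosome. They included 34 windows for 26 of the members and none for Fdps, Fdft1, Sqle, Stard4, Scd1, Scd2, Fads1 and Abcg1. Below are 4 members that were lower in oxi cell, 1 for each of the mevalonate, regulator, sterol and fatty acid groups, and Abca1, the member that was higher. Each had a single window, printed 5' to 3' on the strand of its gene, and capitals mark the 3 motifs in either orientation.
Hmgcs1: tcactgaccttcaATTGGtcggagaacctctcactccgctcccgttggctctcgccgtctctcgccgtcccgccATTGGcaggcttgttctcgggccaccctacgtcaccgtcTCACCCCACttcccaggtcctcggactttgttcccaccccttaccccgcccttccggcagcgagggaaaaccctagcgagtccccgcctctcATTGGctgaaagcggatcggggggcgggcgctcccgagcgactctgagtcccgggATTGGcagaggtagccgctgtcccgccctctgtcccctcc
Insig1: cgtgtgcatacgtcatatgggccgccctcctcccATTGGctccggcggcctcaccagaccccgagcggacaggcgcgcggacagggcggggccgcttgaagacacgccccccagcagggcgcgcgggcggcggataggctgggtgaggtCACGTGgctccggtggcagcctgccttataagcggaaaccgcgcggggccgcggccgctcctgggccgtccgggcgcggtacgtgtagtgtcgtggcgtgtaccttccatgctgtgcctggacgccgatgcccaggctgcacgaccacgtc
Msmo1: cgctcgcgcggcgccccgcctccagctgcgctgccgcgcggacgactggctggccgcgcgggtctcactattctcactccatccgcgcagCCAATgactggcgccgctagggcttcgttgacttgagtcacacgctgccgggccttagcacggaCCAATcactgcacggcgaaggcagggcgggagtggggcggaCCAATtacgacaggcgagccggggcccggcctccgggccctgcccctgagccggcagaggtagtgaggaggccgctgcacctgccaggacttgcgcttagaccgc
Fasn: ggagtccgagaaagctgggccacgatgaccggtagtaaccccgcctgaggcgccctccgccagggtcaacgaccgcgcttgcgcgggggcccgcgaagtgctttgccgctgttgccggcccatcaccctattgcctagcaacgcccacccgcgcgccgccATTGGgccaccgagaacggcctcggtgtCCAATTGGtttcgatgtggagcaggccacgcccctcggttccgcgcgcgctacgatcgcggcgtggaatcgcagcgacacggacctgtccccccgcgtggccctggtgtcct
Abca1: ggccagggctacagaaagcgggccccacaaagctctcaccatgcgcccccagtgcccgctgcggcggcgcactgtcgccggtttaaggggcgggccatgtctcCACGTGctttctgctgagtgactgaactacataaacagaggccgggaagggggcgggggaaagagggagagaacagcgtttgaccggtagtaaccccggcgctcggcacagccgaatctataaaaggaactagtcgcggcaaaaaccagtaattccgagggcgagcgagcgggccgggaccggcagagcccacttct
The window of Hmgcs1 lies at chr13:119690101-119690400 on the plus strand and holds 4 CCAAT matches and the 1 sterol element match among all member windows. The window of Insig1 is chr5:28071162-28071461 (plus strand), with 1 CCAAT and 1 E-box match. Msmo1 at chr8:64733529-64733828 and Fasn at chr11:120824498-120824797, both on the minus strand, hold 3 CCAAT matches each, of which 2 in Fasn overlap on opposite strands. Abca1 at chr4:53159846-53160145 (minus strand) holds an E-box match and no NF-Y match.

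The NF-Y letters stood in 64.7% of the 34 member windows and in 37.4% of all 32851 windows used. The E-box stood in 20.6% (7 windows of 6 genes) and 7.15%, and the sterol element in 2.94% (1 window) and 1.24%. Windows of a gene can overlap, as those of Scap do, so a site can count more than once. CCAAT was present for 8 of 9 members with a window that were lower in oxi cell and for 13 of 16 that were not called, a difference that was not tested. A match is a run of letters, and binding was not measured.

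**Figure D1:**
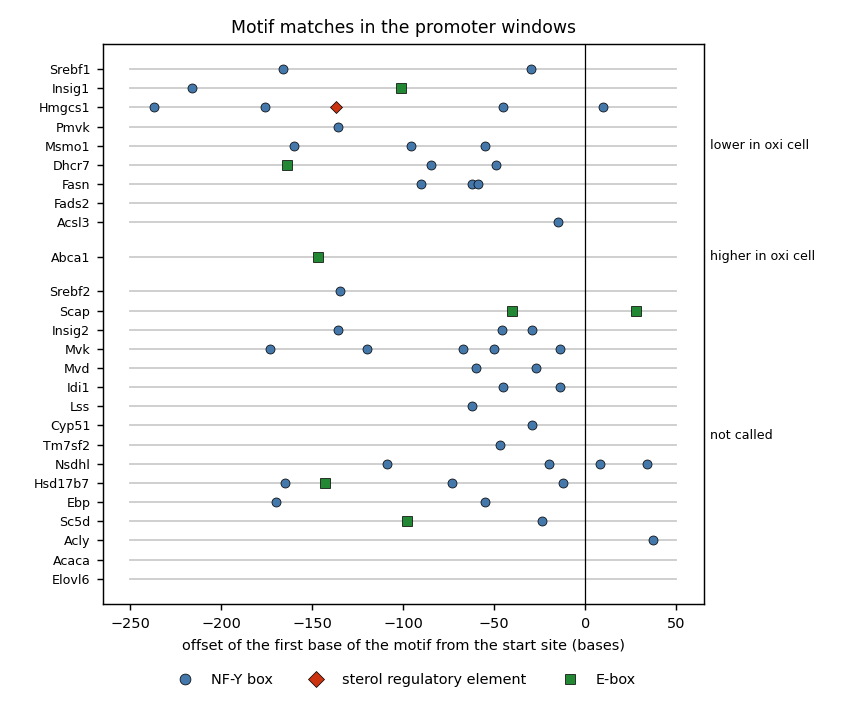
Motif matches in the promoter windows of 26 members, by distance in bases from the start site (the windows of a gene with several start sites are drawn on 1 line). Rows are grouped by the call in oxi cell, and CCAAT (NF-Y box, circles) appears in 8 of 9 lower members and 13 of 16 members not called, while the 1 sterol element (diamond) is in Hmgcs1.

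In cells, H2O2 went with lower signals of some regulators, sterol enzymes and fatty acid genes and with a higher signal of Abca1, while 20 members were not called. Of the 34 members, 13 were lower in oxi cell and 1 was higher by limma with an adjusted p under 0.05. The lower genes were the regulators Srebf1 and Insig1, the sterol synthesis genes Hmgcs1, Pmvk, Fdps, Msmo1 and Dhcr7, the sterol carrier Stard4, and the fatty acid genes Fasn, Scd1, Scd2, Fads2 and Acsl3. Their falls were modest, from 0.21 to 0.59 on the log2 scale. Among all genes 5.46% were called lower and 6.42% higher, and among the 9829 genes above background in the mean of the 8 cell arrays 9.78% were lower and 11.8% higher, against 38.2% and 2.94% of the members. The members' median change was -0.13, beside -0.089 over all genes and -0.025 over those above background.

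These calls depend on how the arrays are scaled. The spiked hybridization controls were 0.814 times as bright on the oxi cell as on the norm cell arrays, and scaling to them moved the median change of all genes from -0.089 to 0.21, after which Scd2 was the 1 member called lower and 12 were called higher. Positions relative to the median of all genes cannot change with this scaling. By that measure the 13 lower members lay 0.12 to 0.50 below and Abca1 0.52 above. These genes were picked by their calls, so their positions are no separate evidence of a change. Among all members, called or not, 19 lay below the median of all genes and 15 above it. The members' median was at -0.042 relative to it. Of the 11 mast cell markers 8 were also lower in oxi cell and 1 (Hdc) was higher, with a summed signal of 48900 to 53290 in norm cell and 36640 to 43870 in oxi cell, and the part of that shift in the members' falls was not tested.

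**Figure D2:**
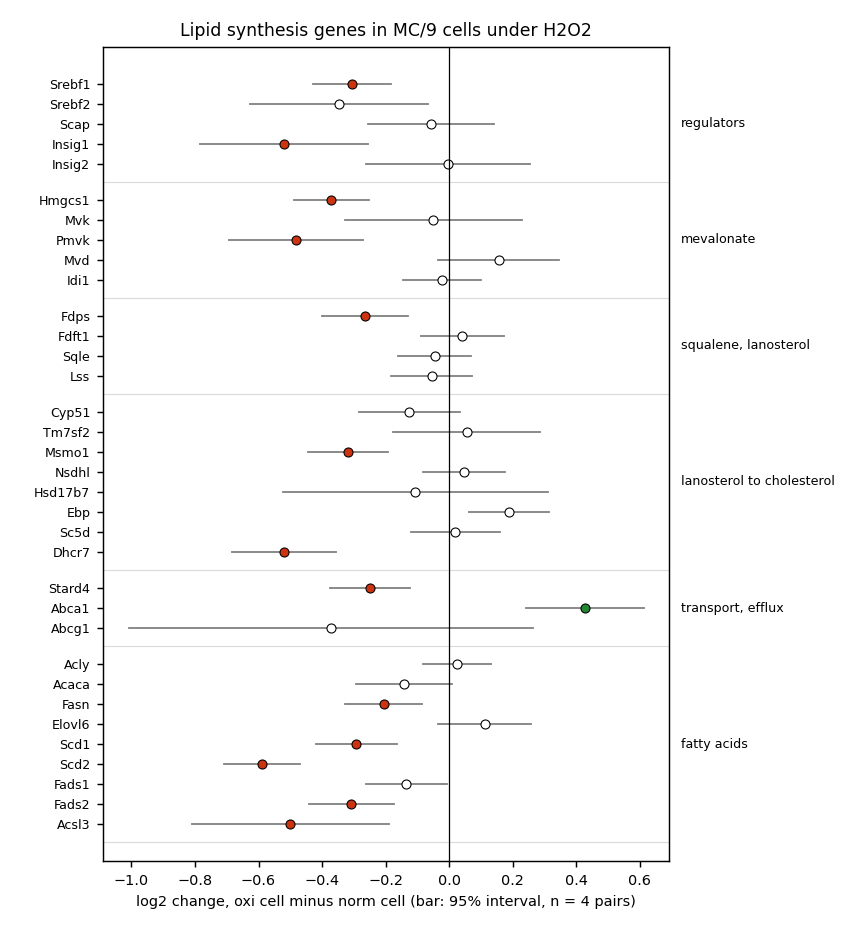
Log2 change from norm cell to oxi cell for each of the 34 genes, grouped by role, with bars for the 95% interval from limma (n = 4 pairs of arrays). Filled points were called, 13 of them lower (red) and 1 higher (green, Abca1), and open points were not called.

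Among the regulators, the norm cell signals of Srebf1, the gene of SREBP-1 (probe set 1426690_a_at), were 863, 866, 812 and 806, and those of oxi cell were 688, 699, 703 and 622. All oxi cell arrays were below all norm cell arrays, a log2 change of -0.31 (95% interval -0.43 to -0.18, limma adjusted p = 0.00525). Insig1, the gene of an anchor of SCAP (1454671_at), gave 201, 219, 184 and 205 in norm cell and 177, 137, 154 and 105 in oxi cell. Its oxi cell arrays were again all lower, with the lowest on array 4, a log2 change of -0.52 (-0.79 to -0.25, limma adjusted p = 0.0188). That call was lost without replicate 2 or 4 (7 lower members remained called in either case). Srebf2, the gene of the factor that drives mainly the sterol enzymes, had a change of -0.35 that was not called (limma adjusted p = 0.127), and the 2 groups overlapped. Its probe set 1426744_at, brighter in cells, changed by -0.11 (limma adjusted p = 0.417). Scap changed by -0.057 (-0.26 to 0.14) and Insig2 by -0.0044 (-0.26 to 0.25), neither of them called.

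Of the 5 mevalonate genes, Hmgcs1 and Pmvk were called. Hmgcs1 makes HMG-CoA, the substrate of the committed step, and its signals (1433443_a_at) were 2007, 1899, 2026 and 1767 in norm cell and 1447, 1571, 1622 and 1323 in oxi cell. The groups did not overlap, with a log2 change of -0.37 (-0.49 to -0.25, limma adjusted p = 0.00152), and 4 of its 5 probe sets were called lower. Pmvk, which adds the second phosphate to mevalonate (1427893_a_at), had 117, 122, 112 and 115 in norm cell and 80.5, 82.9, 87.1 and 83.4 in oxi cell. Both groups were narrow and apart, and the change was -0.48 (-0.69 to -0.27, limma adjusted p = 0.0086), a call lost without replicate 2. The next enzymes were not called, with -0.050 for Mvk (-0.33 to 0.23), 0.16 for Mvd (-0.035 to 0.35) and -0.023 for Idi1 (-0.15 to 0.10). The other Mvk probe set, 1418052_at, was brighter in cells. It was higher in oxi cell without overlap and missed the threshold (0.37, limma adjusted p = 0.0661).

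Between isoprenoids and lanosterol, 1 of 4 genes was called. Fdps makes farnesyl diphosphate, from which sterols, dolichol and protein prenyl groups all branch. It gave 6963, 6939.5, 6819.6 and 7511 in norm cell and 5211, 6041, 6444 and 5874 in oxi cell (1423418_at). Every oxi cell array lay below the norm cell arrays, a log2 change of -0.26 (-0.40 to -0.13, limma adjusted p = 0.0194). With quantile normalization the change shrank to -0.060 and the call was lost, as it was without replicate 1, 2 or 4. The first genes committed to sterols, Fdft1 (squalene synthase) and Sqle (squalene epoxidase), were at 0.041 (-0.089 to 0.17) and -0.046 (-0.16 to 0.070), and their groups overlapped. Lss, lanosterol synthase, was not called through its brightest probe set (-0.055, limma adjusted p = 0.652), but its probe set 1426913_at was lower (log2 change -0.53, limma adjusted p = 0.00159), so its probe sets disagree.

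Of the 8 genes from lanosterol to cholesterol, Msmo1 and Dhcr7 were called. Msmo1, a sterol methyl oxidase (1423078_a_at), had 913, 843, 867 and 861 in norm cell and 697, 727, 717 and 656 in oxi cell. Its groups were apart, with a change of -0.32 (-0.44 to -0.19, limma adjusted p = 0.00488). Dhcr7, which reduces 7-dehydrocholesterol to cholesterol (1448619_at), had 394, 385, 415 and 347 in norm cell and 288, 303, 253 and 234 in oxi cell. All oxi cell arrays were lower, a change of -0.52 (-0.68 to -0.36, limma adjusted p = 0.00138). The other 6 ranged from -0.13 for Cyp51 to 0.19 for Ebp. Ebp, the sterol isomerase, had higher signals on all 4 oxi cell arrays (493 ± 12.8 against 562 ± 6.18, SD, n = 4) and missed the threshold (limma adjusted p = 0.0648).

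The genes of transport went both ways. Stard4 carries sterols between membranes and is itself a SREBP target. Its signals (1429240_at) were 1205, 1158, 1272 and 1365 in norm cell and 1063, 1046, 1054 and 1036 in oxi cell, lower on every oxi cell array, a change of -0.25 (-0.38 to -0.12, limma adjusted p = 0.0191), a call lost without replicate 3 or 4. Abca1, the LXR-driven pump (1421840_at), gave 213, 204, 231 and 272 in norm cell and 321, 292, 322 and 298 in oxi cell. All 4 oxi cell arrays were above all norm cell arrays, a change of 0.43 (0.24 to 0.61, limma adjusted p = 0.00788), while its other 2 probe sets were dim and not called. Abcg1, the other LXR-driven pump, was close to background (18.7 ± 3.57 and 14.8 ± 4.64, SD, n = 4) and was not called (-0.37, limma adjusted p = 0.51). It was also the 1 member not above background on all 4 oxi cell arrays.

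Fatty acid genes held 5 of the 13 lower calls. Scd2, a stearoyl-CoA desaturase that makes monounsaturated fatty acids (1415822_at), had 6775, 7465, 7359 and 7333 in norm cell and 4796, 4682, 5221 and 4555 in oxi cell. The gap between the groups was wide against their spread, with a change of -0.59 (-0.71 to -0.47, limma adjusted p = 0.000146). All 3 of its probe sets were called lower, the others with changes of -1.01 and -0.90. Scd1, its close relative (1415964_at), went from 658, 696, 668 and 672 to 566, 567, 557 and 512. Here too the groups did not overlap, with a change of -0.29 (-0.42 to -0.17, limma adjusted p = 0.00806), a call lost without replicate 4. Whether probes of these 2 related genes share transcripts was not tested.

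Fasn, fatty acid synthase (1423828_at), had 1637, 1607, 1783 and 1726 in norm cell and 1490.3, 1475, 1415 and 1469.8 in oxi cell. The oxi cell arrays were all lower, a change of -0.21 (-0.33 to -0.085, limma adjusted p = 0.0371), a call that leaving out any 1 replicate ended. Fads2, a desaturase of polyunsaturated fatty acids (1419031_at), had 867, 974, 802 and 863 and 736, 696, 691 and 704. Its change of -0.31 (-0.44 to -0.17, limma adjusted p = 0.00846) was called for 1 of its 3 probe sets, and not without replicate 2. Acsl3, which activates fatty acids at lipid droplets (1452771_s_at), had 56.5, 53.4, 56.3 and 58.6 and 42.6, 40.9, 37.4 and 38.2. The groups were apart (-0.50, -0.81 to -0.19, limma adjusted p = 0.048), though the call was also lost without any 1 replicate and with quantile normalization.

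The genes at the head of fatty acid synthesis were not called. Acly, which supplies cytosolic acetyl-CoA, changed by 0.025 (-0.083 to 0.13), a narrow interval around 0. Acaca, the carboxylase that makes malonyl-CoA, changed by -0.14 (-0.29 to 0.0089). Fads1, the partner desaturase of Fads2, was at -0.14 (limma adjusted p = 0.192), with its dimmer probe set 1440444_at called lower (-0.67). Elovl6, an elongase, had 1 probe set called higher (0.24) and 1 called lower (-0.60), with the brightest not called (0.11), so no direction can be given. Of the 20 members not called, 4 (Lss, Cyp51, Elovl6 and Fads1) had another probe set that was.

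**Figure D3:**
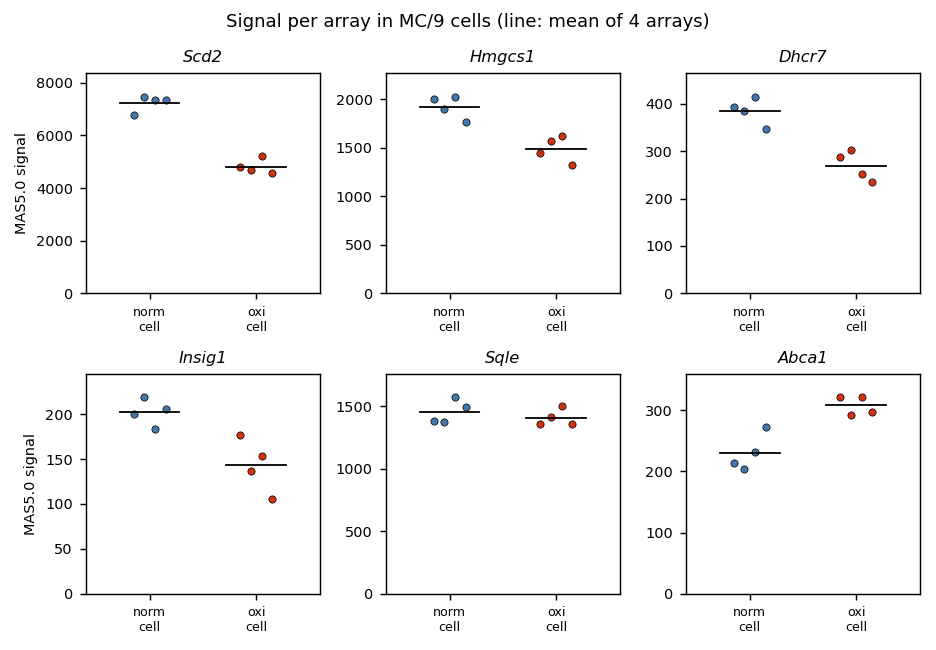
MAS5.0 signal (linear axis from 0) on each norm cell and oxi cell array for 6 members, with a line at the mean of 4. The groups are apart for Scd2, Hmgcs1, Dhcr7 and Insig1, which are lower in oxi cell, and for Abca1, which is higher, and overlap for Sqle.

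Other genes of these pathways, from lists that leave out the members, were called in both directions in cells. Of all genes 5.46% were lower and 6.42% higher, and of those above background in cells 9.78% and 11.8%. Whether the lists differ from these shares was not tested. Of 12 further sterol genes measured, Mbtps2, a protease that frees SREBP from the membrane, was lower (-0.39, limma adjusted p = 0.00586), and Tmem97, a sterol-regulated binding partner of NPC1, was higher (0.37, limma adjusted p = 0.0206). Of 17 further fatty acid genes, 3 were lower and 1 was higher. The lower ones were Acss2, a SREBP target that makes acetyl-CoA from acetate (-0.64, limma adjusted p = 0.000501), Mid1ip1, an activator of acetyl-CoA carboxylase (-0.38, limma adjusted p = 0.0036), and Gpam, the first acyltransferase of triglyceride synthesis (-0.29, limma adjusted p = 0.0345). Acsl5, an acyl-CoA synthetase, was the higher one (0.30, limma adjusted p = 0.00337). On the LXR side 1 of 6 was called, and it went against Abca1. Mylip, an LXR target whose product marks lipoprotein receptors for breakdown, was lower (-0.73, limma adjusted p = 0.00744).

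In exosomes of normal conditions, 8 of the 34 members stood above background on all 4 arrays, namely Srebf1, Mvd, Fdps, Fdft1, Sqle, Stard4, Scd2 and Fads1, and 18 did so on no array. In oxi exo, Scd2 and Fads1 remained above it on all 4 arrays, and 25 members were above it on none. In cells the numbers were 34 of 34 for norm cell and 33 for oxi cell. Over all genes, 51.2% were above background in norm cell, 52.3% in oxi cell, 5.82% in norm exo and 2.52% in oxi exo.

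Under H2O2, transcripts of the pathway in exosomes were lower wherever a change was called. Of the 34 members, 5 were lower in oxi exo (Hmgcs1, Fdps, Stard4, Scd2 and Fads1) and 0 were higher, against 2.25% and 0.022% of all genes. At an unadjusted p under 0.05, limma gave 1 member higher (Abca1). The methods' paired test also gave 1, but a different gene (Srebf2). Over the 5 members above background in the mean of the 8 exosome arrays, 4 were lower, where 25.4% of the 1189 such genes were lower and 0.168% higher. The members' median change was -0.62 and that of all genes 0.00076, over signals that were mostly below background. Mast cell markers were also lower, with a summed signal of 4468 to 7204 in norm exo and 1712 to 2655 in oxi exo and 5 of 11 called, and their part in the result was not tested.

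Fdps signals were 1837, 1619, 961 and 1295 in norm exo and 357, 289, 328 and 320.3 in oxi exo. The oxi exo arrays sat near background, above it on 3 of 4, and all were far below norm exo. The log2 change was -2.10 (-2.59 to -1.62), or 4.30-fold (limma adjusted p = 0.000186).

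Scd2 gave 5059, 5251, 3314 and 3841 in norm exo and 1104, 1298, 1213 and 667 in oxi exo, above background on all 8 arrays. The groups were well apart, with array 4 the lowest of oxi exo. The change was -2.05 (-2.47 to -1.63), 4.13-fold lower (limma adjusted p = 0.000156). Its probe set 1415823_at was below background on all 4 oxi exo arrays and at least 1.30-fold lower (limma adjusted p = 0.0188), and 1415824_at was above background on no exosome array.

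Stard4 had 1195, 1128, 724 and 819 in norm exo and 232, 415, 399 and 254 in oxi exo, where 2 arrays were above background. All oxi exo arrays were lower, a change of -1.59 (-2.14 to -1.04, limma adjusted p = 0.0021). Fads1 had 1453, 1438, 1013 and 1043 and 508, 665, 561 and 395, above background on all 8 arrays and without overlap. Its change was -1.22 (-1.66 to -0.78, limma adjusted p = 0.00331), a call lost with quantile normalization, and its dimmer probe set did not follow (0.096).

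Hmgcs1 was at the edge of what exosome arrays can measure. Its signals were 296, 314, 198 and 290.5 in norm exo, above background on 3 arrays, and 97.9, 73.5, 53.8 and 126 in oxi exo, below background on all 4. It was called lower (limma adjusted p = 0.0345) with means of 275 and 87.7, but no fold can be given, since the norm exo mean was below the oxi exo background of 295. With signals floored at background the change turned to 0.018 and the call was lost, as it was without any 1 replicate. Quantile normalization and scaling to the spiked controls lost it too, and 1 of the 5 Hmgcs1 probe sets was called in exosomes.

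The other members above background on all norm exo arrays were lower on average in oxi exo and not called. Picking them by their norm exo signals makes a lower oxi exo mean likelier, so these falls support no change. Srebf1 changed by -0.73 (limma adjusted p = 0.352). Sqle, Mvd and Fdft1 fell below background on all 4 oxi exo arrays, where they have only a bound. From the group means alone, that bound was 1.21-fold for Mvd (limma adjusted p = 0.204) and 1.15-fold for Fdft1 (limma adjusted p = 0.434), neither of them called. Sqle had means of 274 and 106 (limma adjusted p = 0.122), with no fold for the same reason as Hmgcs1. Mvd, Fads2 and Stard4 had another probe set called lower (1448663_s_at, 1449325_at and 1455011_at), each below background on all 4 oxi exo arrays. Of genes outside the list, Npc2, a lysosomal cholesterol carrier, was at least 2.15-fold lower (limma adjusted p = 0.0117). The elongase Elovl5 was at least 2.45-fold lower (limma adjusted p = 0.000334), and Acsl5, above background on all 8 arrays, was lower too (-1.08, limma adjusted p = 0.0131).

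**Figure D4:**
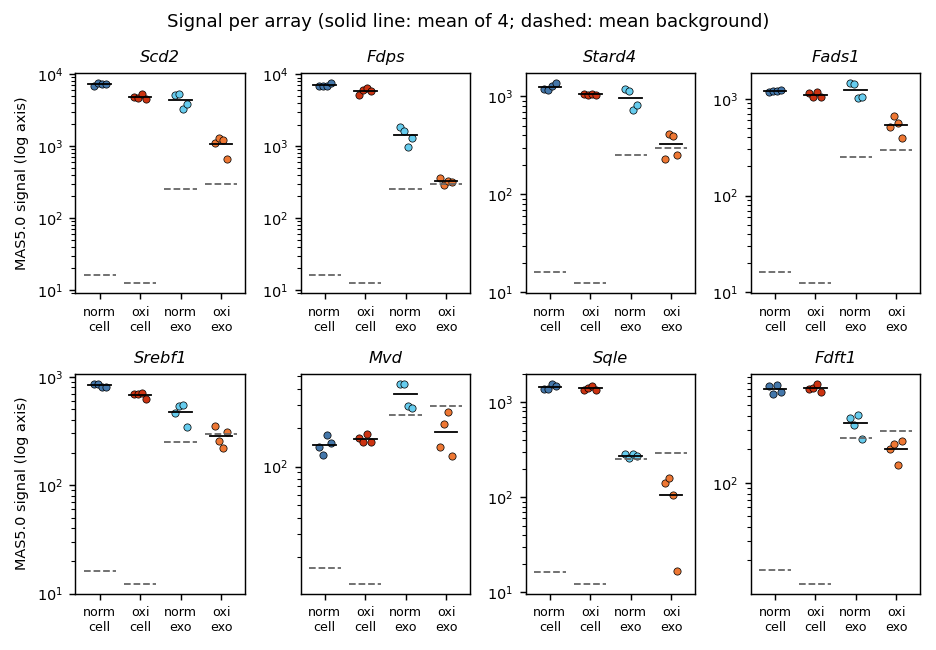
MAS5.0 signal (log axis) on each array of the 4 groups for the 8 members above background on all norm exo arrays, with solid lines at the mean of 4 and dashed lines at the mean background of the group. Scd2, Fdps, Stard4 and Fads1 lose signal from norm exo to oxi exo, and Mvd, Sqle and Fdft1 end below the dashed line. The members were picked by their norm exo signals, which makes lower oxi exo signals likelier.

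In a limma test of the difference between the 2 changes, over the 8 differences within replicate numbers, 4 members had a lower change in exosomes than in cells. They were Fdps (-1.84 on the log2 scale, -2.35 to -1.34, limma adjusted p = 0.0057), Scd2 (-1.46, -1.95 to -0.97, limma adjusted p = 0.0105), Fads1 (-1.09, -1.58 to -0.59, limma adjusted p = 0.038) and Hmgcs1 (limma adjusted p = 0.0334). The size for Hmgcs1 was not measured, since it was below background in oxi exo, and with signals floored at background its difference turned to 0.39. With a replicate block 2 of the 4 calls (Fdps and Scd2) were kept, and with quantile normalization those of Scd2 and Fads1 were lost. Over all genes 1.92% had a change lower in exosomes than in cells and 0.0495% a change higher, against 4 and 0 of 34 members (0 also had a higher change at an unadjusted limma p under 0.05, and 4 by the methods' test on linear signals, unadjusted). Stard4 was at -1.34 (limma adjusted p = 0.0599) and missed the threshold. Without replicate 1 or without replicate 2, 0 of the 4 calls were kept. For Insig1, Dhcr7 and Abca1, called in cells, the difference was not called, and none of the 3 was above background on all arrays of either exosome group.

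**Figure D5:**
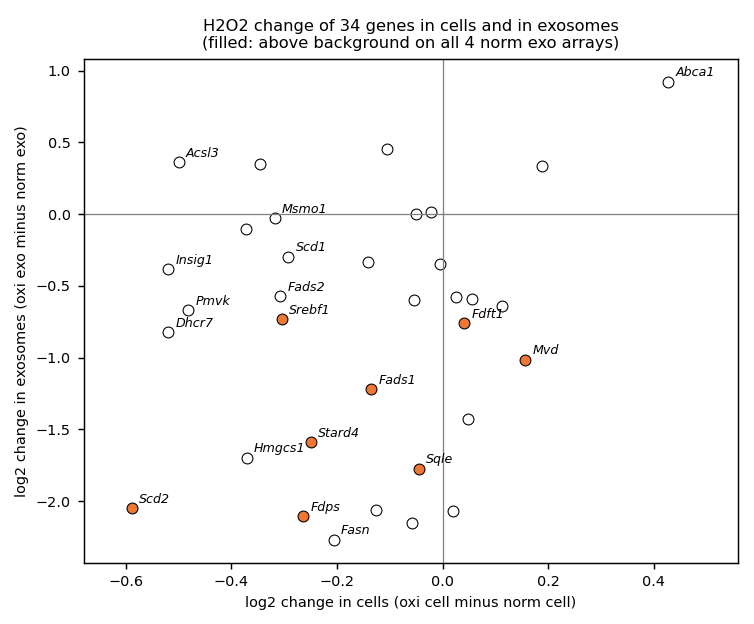
Log2 change under H2O2 in cells (horizontal axis) and in exosomes (vertical axis) for the 34 genes, each from 4 against 4 arrays, with filled points for the 8 genes above background on all norm exo arrays. The vertical axis spans a wider range, and Scd2 and Fdps stand at -2.05 and -2.10 in exosomes against -0.59 and -0.26 in cells.

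Set against the cells, exosomes held less signal of most members. In normal conditions 20 members were lower in norm exo than in norm cell and 3 were higher (Mvd, Hsd17b7 and Abcg1), while over all genes 25.0% were lower and 53.2% higher. Under H2O2, 24 were lower and 4 higher (Srebf2, Hsd17b7, Acsl3 and Abcg1), with 26.7% and 54.4% of all genes. Members had median changes of -1.12 and -1.87, and all genes 1.67 and 1.93. Beside this shift of all genes, the array background was 15.5 and 23.9 times as high in exosomes as in cells, and its part in the shift was not tested. Scaled to the spiked controls, all genes moved to -2.44 and -2.45, 33 members had less signal in norm exo and 0 were higher in either condition, so a direction holds only relative to other genes. By that measure 32 of 34 members lay below the median of all genes in each condition, and with quantile normalization 26 and 29 did. All 34 members were above background in norm cell, against 51.2% of all genes. They were not compared with genes of like cell signal, so these shares cannot be read as particular to the members. These comparisons share their arrays with the H2O2 comparisons.

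The members differed widely in how much of the cell signal exosomes held. On the signals as deposited, Fads1 was level through its brightest probe set. Its norm cell signal was 1207 ± 26.0 and that of norm exo 1237 ± 241 (SD, n = 4). The log2 difference was 0.014 (-0.38 to 0.41), while its dimmer probe set 1440444_at was higher in norm exo (1.35, limma adjusted p = 0.00155). Stard4, at 1249.9 ± 89.9 and 967 ± 230.1, did not differ beyond the spread through its brightest probe set (-0.40, -0.84 to 0.046). Its probe set 1455011_at was not called (-0.32, limma adjusted p = 0.174). Its probe set 1429239_a_at was below background on all norm exo arrays and at least 1.62-fold lower (limma adjusted p = 0.00105). Scd2 was lower in norm exo (log2 difference -0.75, -1.10 to -0.41, limma adjusted p = 0.00153), a direction that turned with quantile normalization (0.19). The Scd2 probe set 1415823_at was lower by more (-2.15, limma adjusted p = 2.02e-05), and 1415824_at at least 1.15-fold (limma adjusted p = 0.0089). Fdps was lower as well (-2.35, -2.73 to -1.96, limma adjusted p = 7.21e-06). Sqle was lower too (-2.41, limma adjusted p = 8.28e-06), with norm exo signals of 284, 257, 285 and 270, close to background.

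Several genes with clear cell signals were not above background on any norm exo array, which gives only a bound. Such bounds hold for the signals as deposited and would move with another scaling. The spiked controls were 17.3 times as bright on norm exo as on norm cell arrays. Elovl6 signal was lower at least 4.74-fold in norm exo against norm cell (1188 in norm cell, limma adjusted p = 1.27e-05). For Msmo1 the bound was 3.47-fold (871 in norm cell, limma adjusted p = 3.06e-05), and its norm exo signals were 3.95, 11.2, 13.4 and 71.0. Scd1 and Nsdhl were at least 2.69-fold and 2.69-fold lower.

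In oxi exo more genes had only a bound against oxi cell, again for the signals as deposited. The spiked controls were 20.8 times as bright on oxi exo as on oxi cell arrays. Acly was at least 5.09-fold lower, Hmgcs1 at least 5.06-fold, Fasn at least 4.98-fold and Sqle at least 4.79-fold (limma adjusted p = 1.98e-05, 1.69e-05, 5.00e-06 and 0.000102). Scd2, measured on all arrays, was 4.63-fold lower in oxi exo than in oxi cell (limma adjusted p = 5.42e-05) and Fads1 2.10-fold (limma adjusted p = 0.00214). With quantile normalization the log2 difference of Scd2 shrank to -0.15 and its call was lost, and that of Fads1 turned to 0.73. Of the genes called higher in exosomes, Hsd17b7 and Acsl3 were below the exosome background on every array, and Abcg1 and Srebf2 were above it on 2 of 4 arrays in each exosome group. Mvd, whose signals were 142, 122, 174 and 153 in norm cell and 434, 439.7, 295 and 285 in norm exo, was the 1 higher member above background on all 4 norm exo arrays (1.28, 0.66 to 1.90, limma adjusted p = 0.00218), and it turned to -2.83 with spiked control scaling.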

How the data were processed

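RNA of MC/9 cells and exosomes was hybridised to 16 Affymetrix mouse arrays. The values deposited by the authors are linear signal intensities, made with MAS5.0 (GCOS 1.2 per the submitters' processing notes) and scaled to a mean of 100 with 2% trimmed at each end. The 64 control probe sets were left out and 45037 tested, of which 34945 carried 1 gene symbol in GEO's platform annotation. Arrays give no read depth, and their number, 4 per group, limits the precision.

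The main model was limma (3.58.1, R 4.3.3) on log2 signal, with lmFit and a trended eBayes, blocked on replicate number since the study's own test was paired. Benjamini-Hochberg adjustment ran over all 45037 in each of the 5 comparisons (threshold 0.05). The difference between changes was fitted over the 8 differences within numbers. The members and lists were chosen with earlier results of these data known. All members are reported, with values per array for those called in cells or exosomes. A fold against a group below background on all arrays is a bound, the bright group's mean over the mean of the other group's backgrounds, both of log2 signals. It leaves out the error of the bright group's mean. Exosome backgrounds averaged 251 (norm exo) and 295 (oxi exo). The fits were tested on simulated data: above background, most of the larger changes were called in cells and in exosomes, but most of the smaller ones in exosomes were not, nor were most changes in exosomes when probe sets were drawn from the whole array, so a member not called may still have changed. Promoters are from RefSeq. Python 3.11.15 was used with numpy 2.4.6, pandas 2.3.3 and matplotlib 3.10.9. The closing section gives the alternatives.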

Additional observations from a re-analysis of the deposited data

Results flagged for a closer look

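In 77 groups of 4 arrays (the members above background in that group), 1 had an array far from the others. For Cyp51 in norm cell, array 3 had a signal of 397.5 and the others 349 to 354, a gap of 0.877 of the whole range, past Dixon's critical value at 95%. Chance gives such a gap in about 1 in 20 groups.

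For 4 members the change under H2O2 differed between exosomes and cells by the limma test of the difference itself, with log2 differences of -1.33 for Hmgcs1, -1.84 for Fdps, -1.46 for Scd2 and -1.09 for Fads1 (limma adjusted p = 0.0334, 0.0057, 0.0105 and 0.038). The value for Hmgcs1 is no measured size, since its oxi exo signals were below background on all 4 arrays, and it turned to 0.39 with signals floored at background. The fall was on all 4 pairs of exosome arrays for each of them.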

How the results depend on the processing

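Adding a pseudocount of 100 kept every count of called members within 1.5 times its reported value, and so did the filter to probe sets above the median signal but for 2 members higher in oxi cell in place of 1. The numbers were not shown to pair the arrays: the deviations of same-numbered arrays correlated between -0.0164 and 0.0224, and the block was kept because the methods use a paired test. With no replicate block, 2 members were higher in oxi cell, 13 lower, and 5 lower in oxi exo, and a replicate block over the 8 differences left 2 of the 4 members whose change was lower in exosomes than in cells. Without 1 replicate at a time, 7 to 11 members were lower in oxi cell, and 0 to 3 had a change lower in exosomes, with 0 without replicate 1 or 2.

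Scaled to the spiked controls, 12 members were higher and 1 lower in oxi cell, and Fdps (0.033), Stard4 (0.047), Fasn (0.090) and Scd1 (0.0043) turned. Against cells, 33 were then lower and 0 higher in norm exo and 0 higher in oxi exo, and Mvd (-2.83), Hsd17b7 (-2.09) and Abcg1 (-0.21) turned in norm exo, and Srebf2 (-3.61), Hsd17b7 (-1.79), Acsl3 (-2.91) and Abcg1 (-0.21) in oxi exo. With quantile normalization, 3 members were lower in oxi exo, 5 were higher in norm exo than in norm cell, and 2 had a change lower in exosomes. Srebf1 (0.48), Fdft1 (0.073) and Scd2 (0.19) turned in norm exo against norm cell, and Fads1 (0.73) and Acsl3 (-0.18) in oxi exo against oxi cell.

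With signals floored at background, which puts most members in exosomes at the background itself, 3 were higher in oxi exo than in norm exo, 10 were higher in norm exo and 12 in oxi exo than in the cells, and 15 had a change higher in exosomes. Hmgcs1 turned in exosomes (0.018) and in the difference (0.39), Pmvk (1.10) in norm exo, and Scap (0.74), Pmvk (1.82), Tm7sf2 (1.29) and Dhcr7 (0.13) in oxi exo, each against cells. With the probe set chosen on the 8 cell arrays, 2 were higher in oxi exo than in oxi cell, and Hsd17b7 in norm exo (-0.42) and Srebf2 in oxi exo (-1.13) turned.

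By the methods' paired test with Benjamini-Hochberg, on linear and on log2 signals, 0 members were called higher or lower in oxi cell, 0 lower in oxi exo and 0 with a change lower in exosomes. Unadjusted, the test gave 3 higher in oxi cell and 1 higher in oxi exo on either scale, and on linear signals 4 with a change higher and 2 with a change lower in exosomes. The causes of these shifts were not tested. In exosomes, background limits what can be measured, since 18 of 34 members in norm exo and 25 in oxi exo were above it on no array.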

Other observations

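Genes of fatty acid breakdown in mitochondria, listed with the receptor gene Ppara, were looked at beside those of synthesis. Ppara was dim in cells, with means of 4.27 in norm cell and 7.40 in oxi cell. Of 8 measured in cells, 3 were higher in oxi cell and 0 lower. Acadvl, the very long chain acyl-CoA dehydrogenase, went from a mean of 208 to 289.8 (log2 change 0.48, limma adjusted p = 0.00179). Hadha, of the trifunctional protein, went from 357 to 462 (0.37, limma adjusted p = 0.00273), and Acadl, the long chain dehydrogenase, from 1288 to 1491 (0.21, limma adjusted p = 0.0377). The median change of the 8, Ppara included, was 0.20, beside -0.089 over all genes, of which 6.42% were higher. Over genes above background in cells the median was -0.025, and 11.8% were higher. Cpt1a, the carnitine transferase that admits fatty acids to mitochondria, was not called (0.19, limma adjusted p = 0.405).

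In exosomes the same list gave 1 call, in the opposite direction. Acadl had means of 467 in norm exo and 182 in oxi exo, where it was below background on all 4 arrays, and was at least 1.58-fold lower (limma adjusted p = 0.0141). Its change was called lower than that in cells (limma adjusted p = 0.00972), with no measured size. Acsl5 also rose in cells and fell in exosomes, and the difference was called (-1.37, limma adjusted p = 0.0142). Markers of T lymphocytes, macrophages, liver and fat were low in cells, with highest summed signals of 121.4, 83.6, 22.7 and 12.8 on any cell array. Still, Csf1r was above background on all arrays of both cell groups, and Zap70 and Cd68 on all oxi cell arrays. All 4 lists had higher sums in exosomes, where background averaged 251 (norm exo) and 295 (oxi exo) for each probe set. T lymphocyte markers summed to 962 to 1176 in norm exo and 1082 to 1766 in oxi exo. Macrophage markers summed to 597 to 817 and 602.5 to 856. Liver markers gave 45.1 to 191 and 159 to 385, and fat markers 78.2 to 215 and 254 to 405. The source of these signals was not tested. Of these lists, only Zap70 was above background on all arrays of an exosome group, and it was so in both.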
